A study of Homo sapiens with 16 samples.

Results

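The DNA replication and S phase genes examined here are 42 genes named by symbol: the factors that switch on S phase transcription, the machinery that licenses and fires replication origins, the polymerases and their accessory proteins, the enzymes that supply deoxynucleotides, and UHRF1, which guides methylation of the copied strand. Each symbol was matched to its Entrez identifier, and all 42 were found among the 16697 identifiers listed in at least 1 of 16 libraries. All 42 also passed the filter on low counts and were tested among 13633 genes. RNA came from cultures labelled Huh-7 and HepG2, both liver cancer cell lines, and polyadenylated RNA was sequenced. The cultures were untreated, or were exposed to cinobufagin at 5 µmol/L for 12 or 24 h. Cinobufagin is a steroid of toad venom that blocks the sodium pump of the cell membrane. Huh-7 had 3 untreated libraries, 3 at 12 h and 3 at 24 h, and HepG2 had 1 untreated library, 3 at 12 h and 3 at 24 h. The untreated groups stand at 0 h, so the drug and the further hours in culture cannot be told apart.

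A cell copies its DNA once per division. In the first gap phase the origin recognition complex, CDC6 and CDT1 load the ring of MCM proteins onto origins. The kinase CDC7 and the cyclin-dependent kinases then turn that ring into a moving helicase with CDC45 and the GINS complex, and the primase-polymerase alpha complex starts each new strand. E2F factors, held back by the retinoblastoma protein until late in that gap phase, drive the transcription of most of these genes, which is why their transcripts are commonly read as a sign of cells entering S phase. In liver, resting hepatocytes express little of this machinery, whereas hepatoma lines divide continuously.

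The libraries held 9543048 to 10457853 expected counts. Levels are in CPM, each count divided by a library total that was scaled by the trimmed mean of M-values (TMM), and a gene is called higher or lower when edgeR's quasi-likelihood test gave a Benjamini-Hochberg adjusted p under 0.05 over all genes tested and a change of at least 2-fold. The labels do not say whether the libraries of a group were separate cultures. A p-value therefore sets a change against the scatter between these libraries, and that scatter may be technical. Every comparison with untreated HepG2 rests on 1 library, whose spread was taken to equal that of the other groups. The labelled identity was not borne out by liver markers: of 10 hepatocyte genes 6 were listed in any library, APOB, TTR, SERPINA1 and FOXA2 were at 0 throughout, and HNF4A in untreated Huh-7 was the sole one at 10 CPM or more, before TMM scaling. The 7 markers of other cells (PTPRC, PECAM1, COL1A1, VIM, KRT7, KRT19 and EPCAM) were all listed, and their summed level was lower in treated libraries. In Huh-7 it was 1256 to 1262 CPM untreated, 512.9 to 529.8 at 12 h and 501.7 to 510.2 at 24 h. In HepG2 it was 2250.0 CPM untreated, 1218 to 1253 at 12 h and 914.4 to 962.6 at 24 h. Most of that sum was VIM and KRT7, at means of 704.6 and 477 CPM in untreated Huh-7. Both fell in each line, as did COL1A1. PECAM1 did not fall in Huh-7, with means of 2.763 CPM untreated, 2.808 at 12 h and 2.656 at 24 h. PTPRC was scarce in both lines, KRT19 in Huh-7 and EPCAM in HepG2, so the sum shows no shift shared by all 7. The summed hepatocyte markers were at 39.0 to 40.9 CPM in untreated Huh-7 and at 2.57 to 6.49 CPM in every other library. Whether either shift has a part in the results was not tested.

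In Huh-7 more replication genes rose than fell after cinobufagin, E2F1 and CDC6 rising most at 12 h, while PRIM1, a primase subunit, and its partner POLA2 fell. At 12 h 17 of 42 rose, where 16.8% of all genes tested were called higher, and 6 fell, where 27.1% of all genes were called lower. The genes that rose were E2F1, ORC6, CDC6, CDT1, MCM4, MCM7, CDC45, GINS2, MCM10, POLE, PCNA, RFC3, RFC5, FEN1, RRM2, TK1 and UHRF1, and those that fell were CDC7, GINS1, PRIM1, POLA2, RPA1 and LIG1. The median log2 fold change of the 42 was 0.94, against -0.10 over all genes tested. At 24 h 14 rose (17.9% of all genes were called higher) and 4 fell (26.9% of all genes), with a median of 0.70 against -0.04. MCM5 was called at 24 h and not at 12 h, while CDT1, MCM4, RRM2 and UHRF1 among the higher genes, and GINS1 and RPA1 among the lower, were called at 12 h and not at 24 h. Both comparisons use the same 3 untreated libraries. RNA from whole cultures was measured, so fewer cells in S phase and less RNA per cell cannot be told apart, nor can more of either.

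HepG2 had as many higher genes at 12 h and fewer at 24 h. At 12 h 17 of 42 rose, against 14.3% of all genes tested, and 1, PRIM1, fell, against 23.6% of all genes. The genes that rose were E2F1, E2F2, E2F3, ORC1, ORC6, CDC6, MCM4, MCM6, GINS2, GINS3, MCM10, PCNA, RFC3, RFC5, FEN1, RRM2 and UHRF1, and the median log2 fold change was 0.73 against -0.09 over all genes. At 24 h 6 rose (14.1% of all genes), namely E2F3, ORC6, CDC6, MCM4, FEN1 and UHRF1, and 3 fell (22.3% of all genes), namely PRIM1, POLA2 and LIG1. The 6 that rose at 24 h made up 14.3% of the 42, near the 14.1% of all genes. The median at 24 h was 0.40 against -0.01. These comparisons share the lone untreated library.

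Of the genes higher at 12 h, 12 were shared by the lines, 70.6% of the 17 in Huh-7 and 70.6% of the 17 in HepG2. Over all genes tested the shared ones were 54.7% of those higher in Huh-7 and 64.4% of those higher in HepG2. ORC6, CDC6 and FEN1 were called higher in each of the 4 comparisons of treated with untreated libraries, as were 5.85% of all genes, and PRIM1 was called lower in each, as were 12.0% of all genes. The 12 and 24 h comparisons of a line share its untreated libraries, so these counts describe the list and are no separate result. Of the 42 genes 13, or 31.0%, were called in none of the 4, beside 33.9% of all genes: ORC2, MCM2, MCM3, GINS4, POLA1, POLD1, POLE2, RFC1, RFC2, RFC4, RPA2, RRM1 and TYMS. The libraries of the compared groups did not overlap for any called gene in these comparisons. The same held for most of the 42 genes that were not called, so it does not set the called ones apart. The share over all genes was not counted. In HepG2 it means only that the treated libraries lay on 1 side of the lone untreated one. The number of calls depends on how libraries are scaled. Over TMM, the size factors of DESeq2 (RLE), upper-quartile scaling, plain library size and division by the library median, the median of all genes at 12 h ran from -0.51 to 0.08 in Huh-7 and from -0.49 to 0.09 in HepG2. At 12 h the 42 genes' median lay above that of all genes by 1.03 to 1.05 in Huh-7 and by 0.82 to 0.85 in HepG2. At 24 h it lay above by 0.74 to 0.75 and 0.41 to 0.45. A scaling shifts the log2 fold changes of all genes nearly alike. This difference could therefore hardly change, and it is no test of the scaling. Under all 5 scalings 9 of the 17 higher calls in Huh-7 held at 12 h (E2F1, ORC6, CDC6, MCM7, GINS2, RFC3, RRM2, TK1 and UHRF1) and 6 of 14 at 24 h (E2F1, ORC6, CDC6, MCM7, GINS2 and TK1). In HepG2 7 of 17 held at 12 h (E2F3, ORC6, CDC6, MCM4, RFC3, FEN1 and RRM2) and 3 of 6 at 24 h (E2F3, ORC6 and FEN1). Lower calls lost under a scaling were RPA1 and LIG1 in Huh-7 at 12 h and POLA2 in HepG2 at 24 h. Genes that were not called could change sign. With plain library size 3 of the 42 did so in Huh-7 at 12 h and 7 at 24 h. In HepG2 9 did so at 12 h and 5 at 24 h. Genes called higher made up 38.3% of all calls in Huh-7 at 12 h and 40.0% at 24 h, and 37.7% and 38.7% in HepG2. With plain library size those shares were 21.3%, 24.3%, 19.3% and 24.2%, and with upper-quartile scaling 26.8%, 27.1%, 29.0% and 30.9%. With the library median they were 47.3%, 44.9%, 49.5% and 45.9%.

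**Figure D1:**
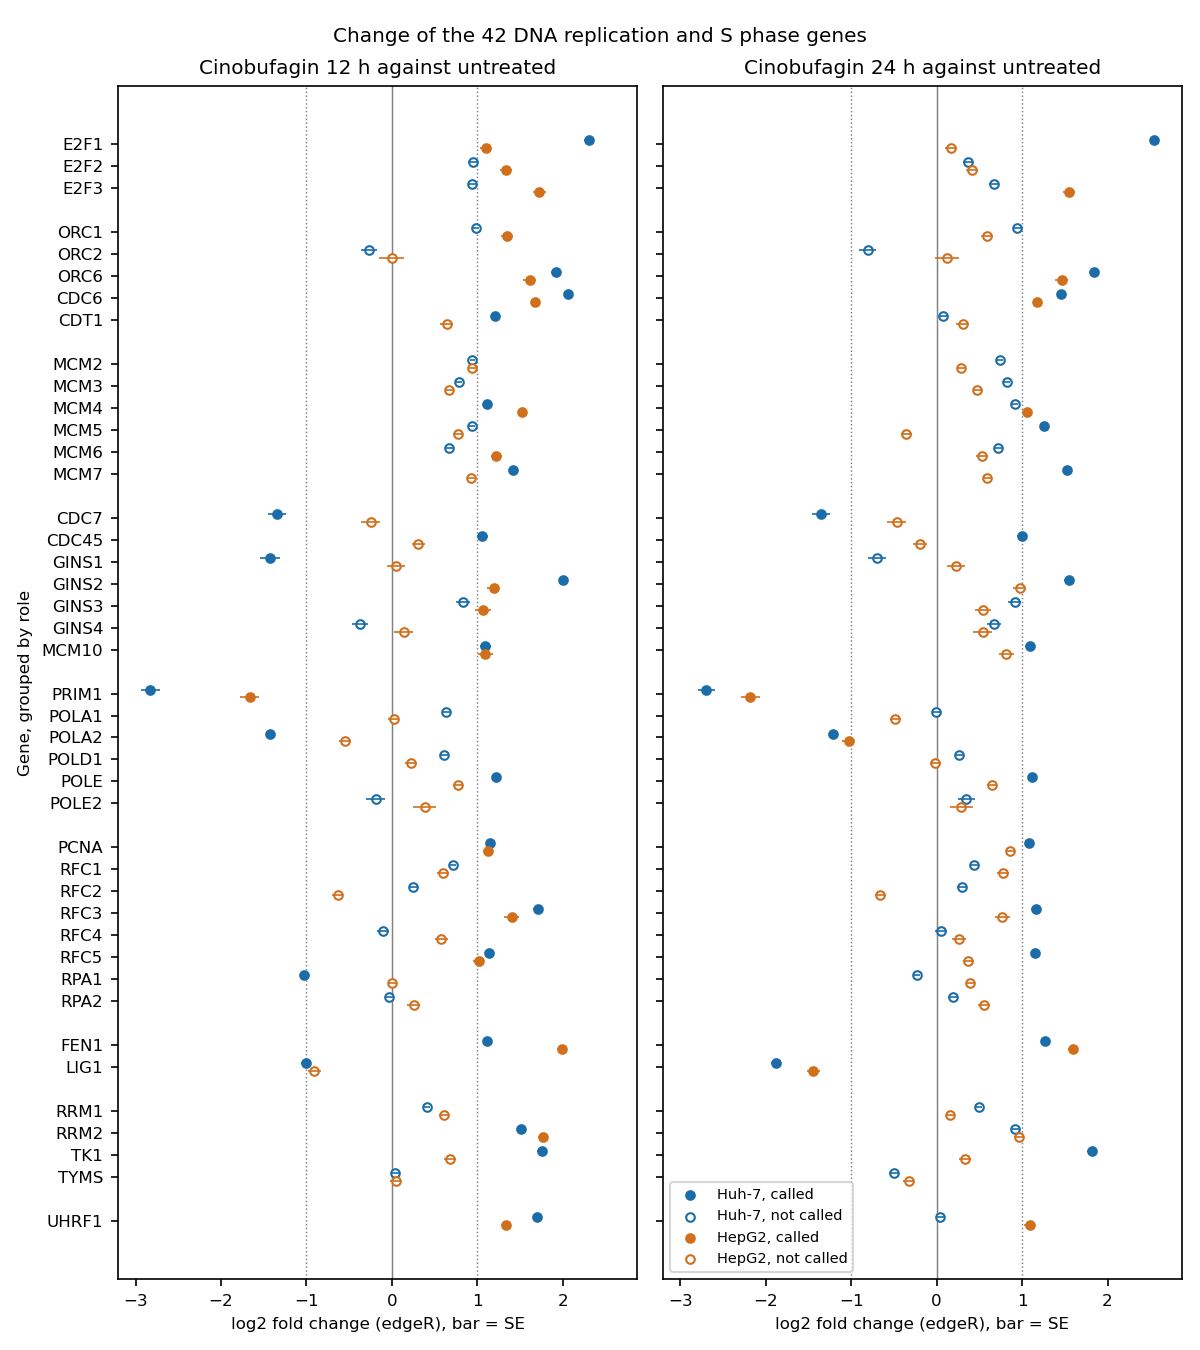
Log2 fold change of each of the 42 genes at 12 h (left) and 24 h (right) against untreated libraries, with bars of 1 SE from edgeR, grouped by role. Filled points were called (adjusted p under 0.05 and at least 2-fold, dotted lines); PRIM1 lies farthest to the left in both lines, and E2F1 farthest to the right in Huh-7 alone.

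**Figure D2:**
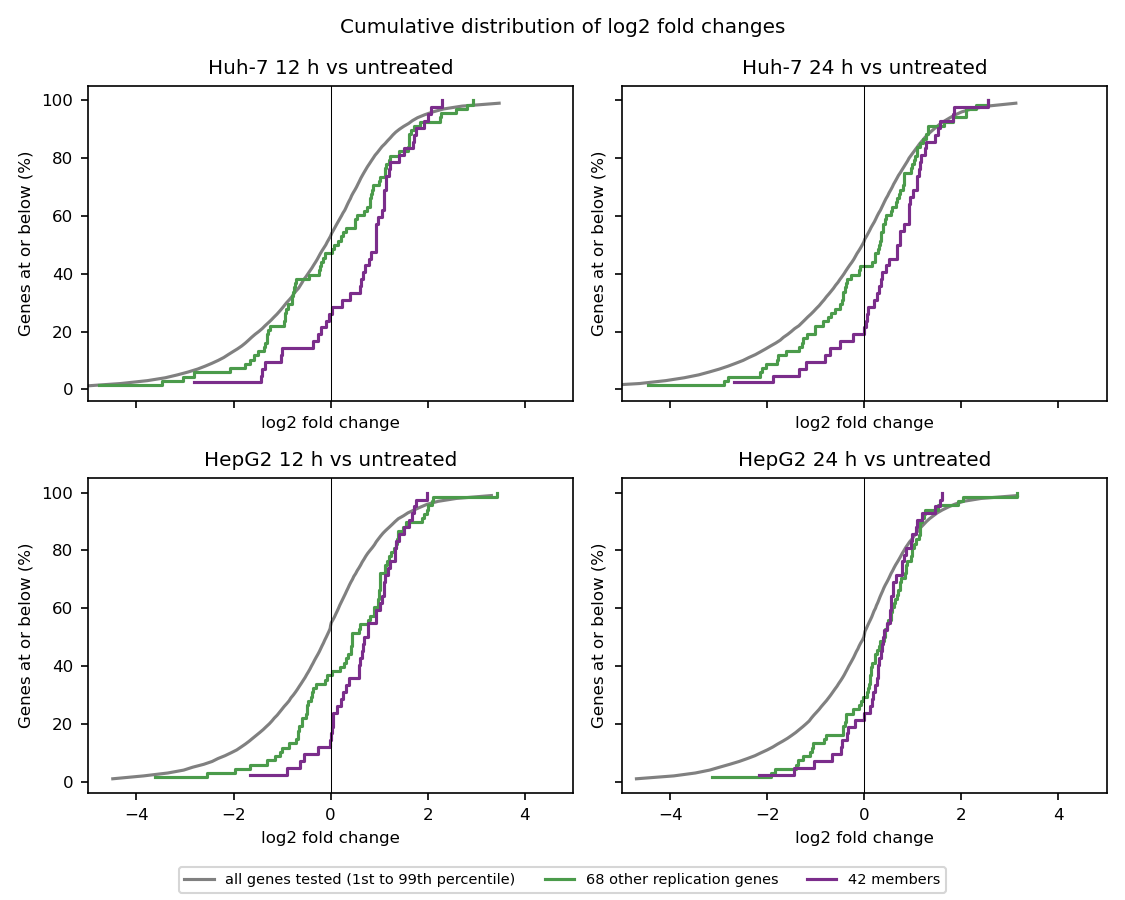
Share of genes (percent) at or below each log2 fold change for the 42 genes, for 68 other replication genes and for all 13633 genes tested, in the 4 comparisons of treated with untreated libraries. The curve of the 42 genes lies to the right of the curve of all genes through most of its course, by 1.03 at the median in Huh-7 at 12 h and by 0.42 in HepG2 at 24 h.

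Because E2F factors act through short promoter elements, the 250 bases before each gene's start were searched in RefSeq promoters of the GRCh38.p14 assembly, which is not the build of the counts. Sequences were found for 38 of the 42 genes, all but MCM4, MCM5, GINS4 and RPA2. The E2F core was searched on both strands. Its letters were TTCCCGC, the form in the primase gene, or else TTGGCGC, the form nearest the E2F1 start. Also accepted were TTCGCGC, the form in POLA2, and, as the last form, TTGCCGC, whose reverse stands in E2F1. Each motif was counted on its own, so matches of different motifs can overlap. The core lay in 24 of 38 (63.2%), against 13.0% of 27305 genes. Those 27305 are all genes with a promoter sequence, and they include genes outside the 13633 tested here. CCAAT, the letters bound by NF-Y, lay in 24 of 38 (63.2%) against 37.0% of genes, and GGGCGG, those bound by SP1, in 29 of 38 (76.3%) against 46.2%. TTTGAA, the letters of the CHR element of mitotic genes, lay in 2 of 38 (5.26%) against 16.1%. The E2F core was found in 14 of 21 genes with sequence that rose in any of the 4 comparisons, in 5 of 6 that fell and in 5 of 11 that were called in none. Genes called in opposite directions both held the core, as the following 5 upstream stretches show. They were chosen after their values were seen, to set 2 risers (E2F1 and GINS2) beside the polymerase alpha, primase and ligase genes that fell. Each is written 5' to 3' on the gene's strand with the E2F core in capitals, on GRCh38.p14.
E2F1 (chr20:33686386-33686635, - strand): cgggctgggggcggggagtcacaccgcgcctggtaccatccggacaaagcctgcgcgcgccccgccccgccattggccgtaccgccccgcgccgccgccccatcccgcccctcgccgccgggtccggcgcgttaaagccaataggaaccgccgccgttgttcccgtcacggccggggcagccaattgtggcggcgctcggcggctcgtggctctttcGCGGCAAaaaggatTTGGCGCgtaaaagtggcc
GINS2 (chr16:85688955-85689204, - strand): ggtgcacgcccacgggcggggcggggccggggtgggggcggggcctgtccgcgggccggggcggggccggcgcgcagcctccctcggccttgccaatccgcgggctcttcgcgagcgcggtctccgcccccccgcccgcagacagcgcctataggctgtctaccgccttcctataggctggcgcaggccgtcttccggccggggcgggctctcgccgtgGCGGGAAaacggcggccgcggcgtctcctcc
PRIM1 (chr12:56752324-56752573, - strand): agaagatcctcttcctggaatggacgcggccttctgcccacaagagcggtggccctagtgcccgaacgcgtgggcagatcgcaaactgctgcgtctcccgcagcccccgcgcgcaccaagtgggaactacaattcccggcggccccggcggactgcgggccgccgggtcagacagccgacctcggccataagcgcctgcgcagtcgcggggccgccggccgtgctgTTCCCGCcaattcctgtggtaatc
POLA2 (chr11:65261712-65261961, + strand): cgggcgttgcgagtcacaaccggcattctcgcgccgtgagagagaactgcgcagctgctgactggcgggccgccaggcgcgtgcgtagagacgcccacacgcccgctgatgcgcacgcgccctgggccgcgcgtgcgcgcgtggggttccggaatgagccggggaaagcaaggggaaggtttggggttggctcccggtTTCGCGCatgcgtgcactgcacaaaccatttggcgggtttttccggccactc
LIG1 (chr19:48170345-48170594, - strand): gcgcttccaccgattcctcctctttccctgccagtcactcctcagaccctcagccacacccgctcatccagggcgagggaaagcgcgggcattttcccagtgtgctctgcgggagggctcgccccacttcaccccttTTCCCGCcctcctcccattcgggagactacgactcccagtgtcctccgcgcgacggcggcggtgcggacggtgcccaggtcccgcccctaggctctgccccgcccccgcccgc
A match describes these letters alone and is not a measured binding site.

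Of the E2F factors, which switch on the genes of S phase, E2F1 rose in Huh-7 at both times, and all 3 rose in HepG2 at 12 h. E2F1 was at 47.3, 49.3 and 54.9 CPM in the untreated Huh-7 libraries, at 251, 249 and 249 CPM at 12 h and at 303, 300.3 and 281 CPM at 24 h. That is a 4.94-fold rise at 12 h (log2 fold change 2.30 ± 0.05 SE, adjusted p = 1e-28) and a 5.84-fold rise at 24 h (log2 fold change 2.54 ± 0.05 SE, adjusted p = 4.86e-30). E2F1 in HepG2 was at 83.1 CPM untreated, at 175, 179 and 183 CPM at 12 h and at 86.9, 96.5 and 97.3 CPM at 24 h. Its 12 h rise there was 2.15-fold (log2 fold change 1.11 ± 0.07 SE, adjusted p = 1.82e-15), and at 24 h its libraries stood just above the untreated one (log2 fold change 0.17 ± 0.07 SE). That position depends on TMM: with plain library size the 24 h HepG2 libraries of E2F1 lay below the untreated one. E2F2, another activator of the family, was at 37.6, 35.4 and 38.4 CPM in untreated Huh-7, 71.6, 71.9 and 70.8 CPM at 12 h and 45.6, 50.5 and 47.2 CPM at 24 h. E2F2 in HepG2 was at 56.6 CPM untreated, 142, 147 and 139.9 CPM at 12 h and 76.4, 73.8 and 75.9 CPM at 24 h. The 12 h libraries were the highest of each line, and only the 2.52-fold rise in HepG2 was called (adjusted p = 5.44e-18). E2F3, the third activator, rose in HepG2 by 3.31-fold at 12 h and 2.93-fold at 24 h, and its log2 fold changes in Huh-7 were 0.94 and 0.67, short of 2-fold.

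Of the 5 genes of origin recognition and licensing, ORC6 and CDC6 rose in all 4 comparisons. ORC6, the smallest subunit of the origin recognition complex, was at 29.3, 29.7 and 28.5 CPM in untreated Huh-7, 108, 109 and 114 CPM at 12 h and 107, 104 and 102 CPM at 24 h. ORC6 in HepG2 was at 35.1 CPM untreated, 109, 108 and 104 CPM at 12 h and 101, 93.8 and 95.5 CPM at 24 h. All treated libraries of either line lay above all untreated ones, and the rises were 3.78-fold and 3.58-fold in Huh-7 and 3.06-fold and 2.76-fold in HepG2 (adjusted p from 6.28e-26 to 8.79e-18). CDC6, which recruits the MCM ring to origins, rose 4.18-fold and 2.75-fold in Huh-7, from 64.1 ± 1.45 CPM untreated (SD, n = 3), and 3.21-fold and 2.26-fold in HepG2. CDT1, its partner in loading, rose 2.31-fold in Huh-7 at 12 h, and at 24 h stood at 197 ± 13.5 CPM beside 186 ± 17.4 CPM untreated (SD, n = 3 each). ORC1, the subunit that comes and goes with the cell cycle, rose 2.54-fold in HepG2 at 12 h and was just short of 2-fold in Huh-7 (log2 fold changes 0.98 and 0.94). ORC2, a core subunit, was called in none of these comparisons. It was at 25.5, 30.3 and 27.6 CPM in untreated Huh-7, 24.4, 18.9 and 25.9 CPM at 12 h and 16.1, 15.4 and 16.1 CPM at 24 h. In HepG2 ORC2 was at 18.0 CPM untreated, 17.8, 17.3 and 18.7 CPM at 12 h and 22.2, 18.1 and 18.4 CPM at 24 h. The untreated and 24 h Huh-7 libraries did not overlap (log2 fold change -0.81 ± 0.10 SE). The HepG2 libraries at 12 h lay around the untreated one with TMM, but below it with plain library size.

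The 6 subunits of the MCM2-7 ring, the motor of the replicative helicase, all had log2 fold changes above 0 at 12 h, from 0.67 to 1.42 in Huh-7 and from 0.67 to 1.52 in HepG2, though 2 of 6 in each line reached the call. MCM4 was at 290.2, 279 and 288 CPM in untreated Huh-7, 622, 618 and 610.4 CPM at 12 h and 536, 543 and 540.2 CPM at 24 h. In HepG2 MCM4 was at 307 CPM untreated, 871, 892 and 884 CPM at 12 h and 644, 624 and 648 CPM at 24 h. Every treated library exceeded every untreated one, with rises of 2.16-fold in Huh-7 at 12 h (log2 fold change 1.11 ± 0.03 SE, adjusted p = 1.95e-25), 2.87-fold in HepG2 at 12 h and 2.08-fold at 24 h. MCM5 was at 220.2, 225 and 239 CPM in untreated Huh-7, 434, 444 and 430.1 CPM at 12 h and 564, 557 and 511 CPM at 24 h. In HepG2 MCM5 was at 269 CPM untreated, 452, 456 and 469 CPM at 12 h and 194, 217 and 219.8 CPM at 24 h. Its highest libraries were those at 24 h in Huh-7 (2.38-fold, log2 fold change 1.25 ± 0.04 SE, adjusted p = 1.9e-23) but those at 12 h in HepG2, where the 24 h libraries lay under the untreated one. MCM7 rose 2.67-fold and 2.87-fold in Huh-7, and MCM6 rose 2.33-fold in HepG2 at 12 h.

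Per length, on the authors' FPKM scale (fragments scaled by gene length and library size), the subunits were not equally abundant, although the ring holds 1 copy of each. MCM7 was highest in 15 of 16 libraries, MCM2 in the other, and MCM6 lowest in all 16. In untreated Huh-7 the highest subunit had 3.32 to 3.58 times the FPKM of the lowest, and in treated Huh-7 5.55 to 6.08 times. The ratio was 6.01 in untreated HepG2 and 4.81 to 6.69 in treated HepG2, so it did not shift in one direction there. MCM7 went from 156 ± 2.27 FPKM in untreated Huh-7 to 311 ± 2.98 at 12 h and 352 ± 10.2 at 24 h (mean ± SD, n = 3), and MCM6 from 45.8 ± 1.82 to 54.8 ± 1.06 and 59.3 ± 0.693. Exons of MCM7 overlap AP4M1 and those of MCM2 overlap TPRA1 on the opposite strand in GENCODE, and the sources used here do not say whether counting used strand.

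**Figure D3:**
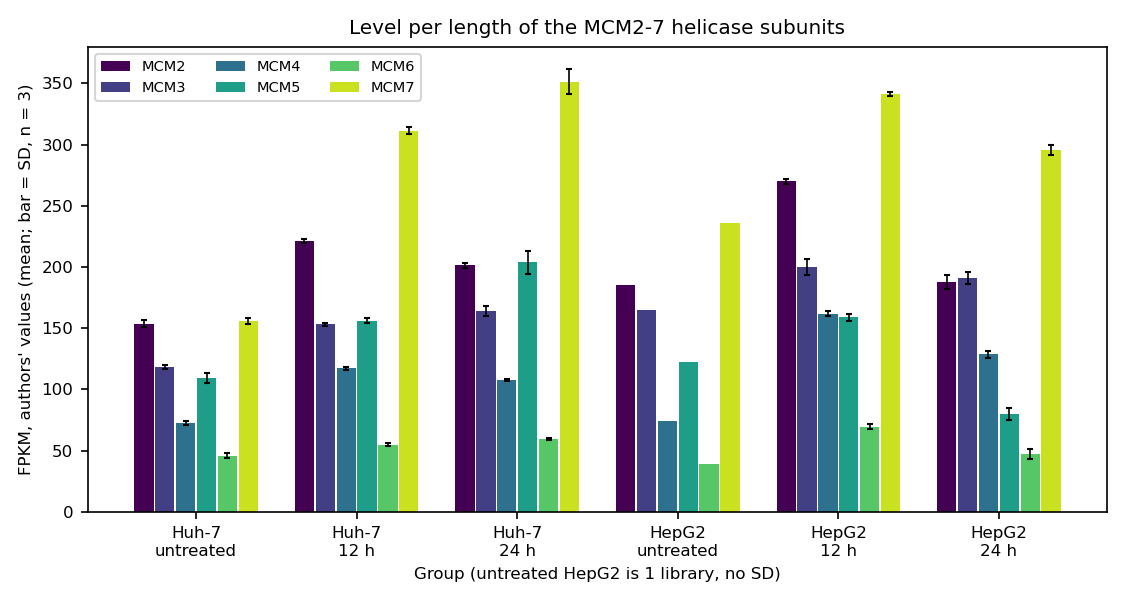
Level of the MCM2-7 subunits in the authors' FPKM, by group; bars are means and error bars SD over 3 libraries, with 1 library for untreated HepG2. MCM7 is the tallest bar and MCM6 the shortest in each group, and MCM5 is the subunit whose bar is taller at 24 h than at 12 h in Huh-7 and shorter than untreated at 24 h in HepG2.

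The proteins that turn the loaded ring into a helicase moved in both directions. GINS2, a subunit of the GINS complex, was at 42.3, 41.9 and 48.4 CPM in untreated Huh-7, 185, 178 and 169 CPM at 12 h and 128, 135 and 125 CPM at 24 h. In HepG2 GINS2 was at 54.4 CPM untreated, 124, 120.3 and 129 CPM at 12 h and 106, 106 and 109 CPM at 24 h. It peaked at 12 h in both lines without overlap, at 4.01-fold in Huh-7 (log2 fold change 2.00 ± 0.05 SE, adjusted p = 1.39e-26) and 2.28-fold in HepG2 (log2 fold change 1.19 ± 0.08 SE, adjusted p = 2.34e-15), and its exons overlap GSE1 on the opposite strand. CDC7, the kinase that fires origins by phosphorylating the MCM ring, was at 29.0, 30.4 and 26.7 CPM in untreated Huh-7, 9.84, 10.6 and 13.3 CPM at 12 h and 11.0, 9.76 and 12.9 CPM at 24 h. In HepG2 CDC7 was at 39.7 CPM untreated, 35.4, 29.1 and 35.6 CPM at 12 h and 30.2, 27.5 and 28.3 CPM at 24 h. It fell 2.55-fold and 2.56-fold in Huh-7 (adjusted p = 2.22e-13 and 1.01e-13), and its HepG2 log2 fold changes were -0.25 and -0.47. GINS1, in the same complex as GINS2, fell 2.69-fold in Huh-7 at 12 h (log2 fold change -1.43 ± 0.12 SE, adjusted p = 4.4e-13), and stood at 0.05 in HepG2 on the log2 scale. GINS3 rose 2.09-fold in HepG2 at 12 h, while GINS4 was called in none of the 4 comparisons. MCM10, which helps assemble the active helicase, rose 2.14-fold and 2.13-fold in Huh-7 and 2.14-fold in HepG2 at 12 h. CDC45, the helicase partner of GINS, rose 2.09-fold in Huh-7 at 12 h. Its 24 h call (2.0-fold) sat at the threshold and was lost with RLE scaling, with DESeq2, with no filter on low counts and with the Huh-7 libraries alone. It was also lost when any 1 of 7 libraries was left out: Huh-7 untreated replicate 1 or 2, Huh-7 12 h replicate 1, Huh-7 24 h replicate 1 or 2, or HepG2 12 h replicate 2 or 3.

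Among the polymerases PRIM1 fell in both lines at both times. POLA2 fell in Huh-7 and, at 24 h, in HepG2, and POLE was called higher in Huh-7 alone. PRIM1, the catalytic primase subunit that makes the RNA primers of replication, was at 33.9, 33.6 and 33.7 CPM in untreated Huh-7, 4.25, 4.91 and 5.09 CPM at 12 h and 4.44, 4.88 and 6.28 CPM at 24 h. In HepG2 PRIM1 was at 39.2 CPM untreated, 11.7, 13.1 and 12.2 CPM at 12 h and 8.58, 8.25 and 9.11 CPM at 24 h. No treated library came near an untreated one, and the falls were 7.08-fold (log2 fold change -2.82 ± 0.11 SE, adjusted p = 3.44e-22) and 6.47-fold (log2 fold change -2.69 ± 0.10 SE, adjusted p = 3.4e-22) in Huh-7, and 3.17-fold (log2 fold change -1.66 ± 0.11 SE, adjusted p = 3e-15) and 4.53-fold (log2 fold change -2.18 ± 0.11 SE, adjusted p = 7.79e-18) in HepG2. Exons of PRIM1 overlap HSD17B6 on the opposite strand. PRIM2, a primase subunit from the other replication genes, did not share this fall in Huh-7. It was at 33.9, 29.8 and 31.5 CPM untreated there, 29.9, 30.6 and 25.2 CPM at 12 h and 39.3, 37.7 and 39.7 CPM at 24 h. In HepG2 PRIM2 was at 40.8 CPM untreated, 26.6, 24.8 and 25.9 CPM at 12 h and 29.4, 28.1 and 32.6 CPM at 24 h, lower by under 2-fold. POLA2, the regulatory subunit of polymerase alpha, to which primase is bound, fell 2.68-fold and 2.31-fold in Huh-7, from 123 ± 3.95 CPM untreated (SD, n = 3), and 2.04-fold in HepG2 at 24 h. That HepG2 call was lost without HepG2 24 h replicate 2, at a log2 fold change of -0.98. POLA1, the catalytic subunit of the same enzyme, was called in none of the 4, with log2 fold changes of 0.63 and 0.00 in Huh-7 and 0.02 and -0.48 in HepG2. POLE, the catalytic subunit of the leading-strand polymerase, was at 135, 134 and 136 CPM in untreated Huh-7, 325, 313 and 306 CPM at 12 h and 303, 277 and 301 CPM at 24 h. In HepG2 POLE was at 156 CPM untreated, 280.4, 259 and 266 CPM at 12 h and 240.0, 248 and 249.8 CPM at 24 h. Treated libraries were above untreated ones in both lines, and the rises of 2.33-fold and 2.17-fold in Huh-7 were called (adjusted p = 1.46e-23 and 1.39e-22). POLE2, its accessory subunit, and POLD1, the catalytic subunit of polymerase delta, had log2 fold changes between -0.19 and 0.61 in the 4 comparisons.

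The sliding clamp and part of its loader rose, and the large subunit of the single-strand binding protein fell in 1 line. PCNA, the clamp that tethers polymerases to DNA, rose 2.22-fold and 2.12-fold in Huh-7 and 2.18-fold in HepG2 at 12 h. RFC3, a subunit of the clamp loader, was at 37.4, 36.5 and 37.7 CPM in untreated Huh-7, 119, 115 and 131 CPM at 12 h and 81.0, 82.7 and 85.6 CPM at 24 h. In HepG2 RFC3 was at 37.4 CPM untreated, 103, 99.5 and 94.3 CPM at 12 h and 68.8, 61.9 and 60.6 CPM at 24 h. Its 12 h libraries were the highest in each line, with rises of 3.27-fold in Huh-7 (log2 fold change 1.71 ± 0.06 SE, adjusted p = 1.55e-23) and 2.64-fold in HepG2 (log2 fold change 1.40 ± 0.09 SE, adjusted p = 7.06e-16). RFC5 rose 2.2-fold and 2.23-fold in Huh-7 and 2.03-fold in HepG2 at 12 h, whereas RFC1, RFC2 and RFC4, of the same loader, were called in none of the 4. RPA1, the large subunit of the protein that coats single-stranded DNA, was at 127, 128 and 121 CPM in untreated Huh-7, 61.2, 62.7 and 60.8 CPM at 12 h and 106, 105 and 109 CPM at 24 h. In HepG2 RPA1 was at 279.6 CPM untreated, 279.5, 286 and 275 CPM at 12 h and 365, 365 and 369 CPM at 24 h. The fall of 2.04-fold in Huh-7 at 12 h was called (log2 fold change -1.02 ± 0.04 SE, adjusted p = 1.88e-20). The 3 HepG2 libraries at 12 h lay around the untreated one with TMM, but below it with plain library size. RPA2, its smaller partner, had log2 fold changes of -0.03 and 0.19 in Huh-7 and 0.26 and 0.56 in HepG2.

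The enzymes that finish the lagging strand moved apart. FEN1, the nuclease that cuts the flaps left between Okazaki fragments, was at 165, 172 and 172 CPM in untreated Huh-7, 362, 368 and 368 CPM at 12 h and 416, 399.6 and 407 CPM at 24 h. In HepG2 FEN1 was at 129 CPM untreated, 504, 524 and 510.2 CPM at 12 h and 398, 383 and 389 CPM at 24 h. All treated libraries lay above untreated ones, with rises of 2.16-fold and 2.4-fold in Huh-7 and 3.97-fold and 3.02-fold in HepG2. Its exons overlap FADS2 on the same strand and TMEM258 on the opposite one, so how reads were split between them is uncertain. LIG1, the ligase that then seals the strand, was at 89.7, 96.6 and 97.6 CPM in untreated Huh-7, 50.7, 43.5 and 46.9 CPM at 12 h and 27.3, 24.2 and 25.8 CPM at 24 h. In HepG2 LIG1 was at 111 CPM untreated, 59.0, 58.9 and 59.5 CPM at 12 h and 39.0, 41.4 and 42.1 CPM at 24 h. All treated libraries lay below untreated ones, and the 24 h falls were 3.67-fold in Huh-7 (log2 fold change -1.88 ± 0.06 SE, adjusted p = 7.74e-24) and 2.72-fold in HepG2 (log2 fold change -1.44 ± 0.07 SE, adjusted p = 3.67e-18). The 12 h fall in Huh-7, 2.01-fold, was no longer called without Huh-7 untreated replicate 2 or 3 or Huh-7 12 h replicate 2.

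Of the enzymes of nucleotide supply, RRM2 and TK1 rose and the other 2 were not called. RRM2, the small subunit of ribonucleotide reductase, was at 117, 118 and 117 CPM in untreated Huh-7, 330.3, 323 and 348 CPM at 12 h and 214, 210.2 and 240.3 CPM at 24 h. In HepG2 RRM2 was at 192 CPM untreated, 655, 648 and 655 CPM at 12 h and 374, 374 and 377 CPM at 24 h. The 12 h libraries were highest in both lines, at 2.84-fold (log2 fold change 1.51 ± 0.04 SE, adjusted p = 1.21e-25) and 3.4-fold (log2 fold change 1.77 ± 0.06 SE, adjusted p = 1.1e-22). TK1, the thymidine kinase of dividing cells, rose 3.37-fold and 3.53-fold in Huh-7, and had log2 fold changes of 0.68 and 0.33 in HepG2. RRM1, the large reductase subunit, had log2 fold changes from 0.16 to 0.60 in the 4 comparisons. TYMS, the synthase of thymidylate, was at 162, 150.4 and 172 CPM in untreated Huh-7, 157, 176 and 164 CPM at 12 h and 114, 106 and 122 CPM at 24 h. In HepG2 TYMS was at 180.2 CPM untreated, 186, 186 and 185 CPM at 12 h and 139, 149 and 143 CPM at 24 h. Its 24 h libraries lay below the untreated ones in both lines, by under 2-fold (log2 fold changes -0.50 and -0.33), and its exons overlap ENOSF1 and TYMSOS on the opposite strand.

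UHRF1, which binds half-methylated DNA behind the fork and brings in the maintenance methyltransferase, had a different course in each line. UHRF1 was at 138, 147 and 143 CPM in untreated Huh-7, 471, 464 and 459 CPM at 12 h and 144, 143 and 154 CPM at 24 h. In HepG2 UHRF1 was at 142 CPM untreated, 343, 365 and 363 CPM at 12 h and 290.3, 305 and 308 CPM at 24 h. The rise at 12 h was 3.26-fold in Huh-7 (log2 fold change 1.70 ± 0.04 SE, adjusted p = 3.22e-28) and 2.52-fold in HepG2 (log2 fold change 1.33 ± 0.06 SE, adjusted p = 9.6e-20). At 24 h the Huh-7 libraries overlapped the untreated range, whereas HepG2 stayed 2.12-fold above its untreated library. With plain library size those Huh-7 libraries lay below the untreated ones.

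**Figure D4:**
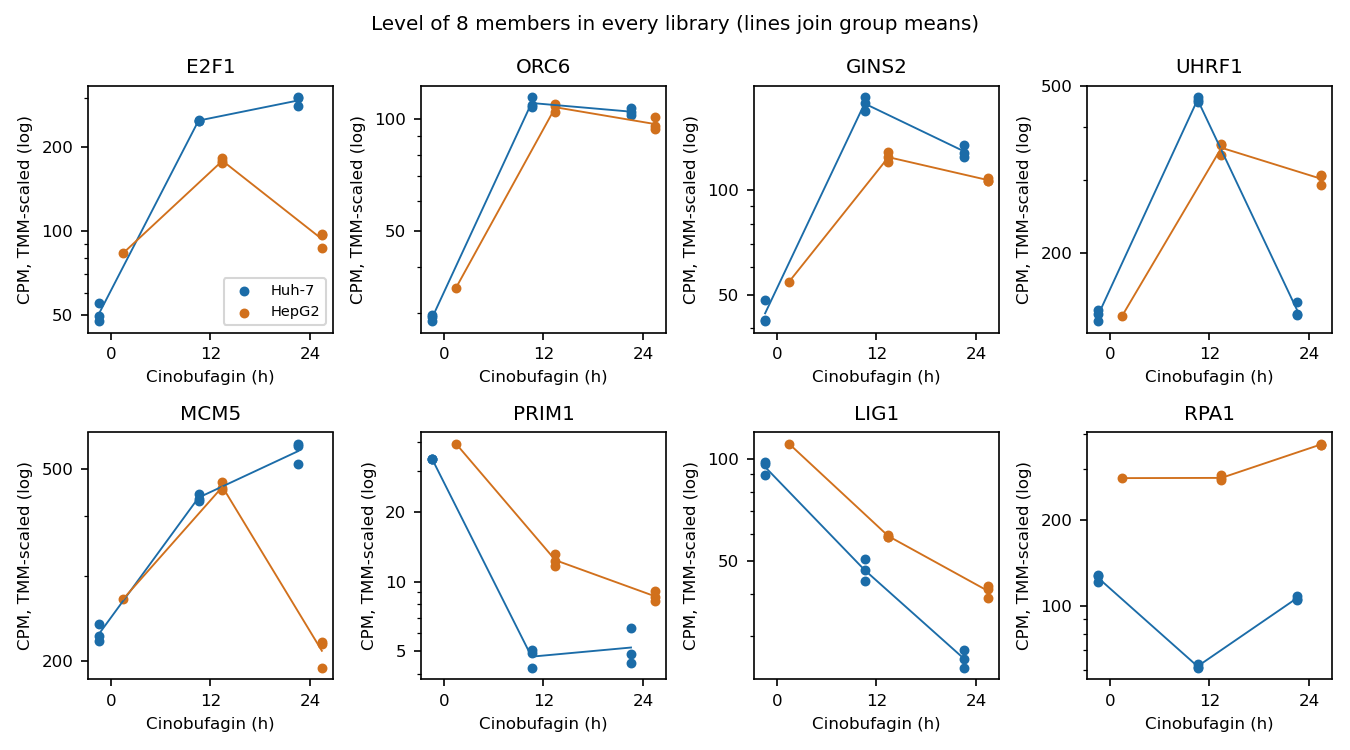
TMM-scaled CPM (log axis) of 8 of the genes in each of the 16 libraries against hours of cinobufagin; points are libraries, shifted sideways by line, and lines join group means. E2F1 and MCM5 are highest at 24 h in Huh-7 and at 12 h in HepG2, and UHRF1 returns to its untreated range at 24 h in Huh-7 alone.

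From 12 to 24 h few genes were called in either line. In Huh-7 1 gene, GINS4, rose from 12 to 24 h (6.51% of all genes were called higher) and CDT1 and UHRF1 fell (6.54% of all genes). GINS4, the fourth subunit of its complex, went from 17.1 ± 2.17 to 35.2 ± 2.07 CPM (SD, n = 3 each), a 2.06-fold rise that was lost without Huh-7 12 h replicate 2 or Huh-7 24 h replicate 3. CDT1 fell 2.19-fold (log2 fold change -1.13 ± 0.06 SE, adjusted p = 2.86e-18) and UHRF1 3.17-fold (log2 fold change -1.66 ± 0.04 SE, adjusted p = 2.58e-26). The median log2 fold change of the 42 genes was -0.02, beside -0.02 over all genes. In HepG2 36 of 42 genes had a log2 fold change below 0, with a median of -0.34 beside -0.01 over all genes, and 33 were lower by less than 2-fold with an adjusted p under 0.05 (25.8% of all genes). MCM5 alone reached the call, falling 2.18-fold (log2 fold change -1.13 ± 0.04 SE, adjusted p = 1.74e-20), where 5.31% of all genes were called lower, and no member was called higher (6.54% of all genes). With no fold threshold 4 of 42 were higher in HepG2 by edgeR (30.4% of all genes), 39 of 42 had an unadjusted p under 0.05 in either direction (64.4% of all genes), and DESeq2 also called 0 higher. The MCM5 call was lost with plain library size. Comparisons of the 2 treated times use no untreated library.

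Before treatment 4 genes stood higher in HepG2 than in Huh-7 (13.8% of all genes) and none lower (13.1% of all genes), judged on 1 HepG2 library. TK1 was 3.35-fold, RRM1 2.67-fold, RPA1 2.23-fold and PCNA 2.21-fold higher. The median over the 42 genes was 0.25, beside 0.04 over all genes. By edgeR 6 of 42 were lower with an adjusted p under 0.05 and no fold threshold (32.7% of all genes), DESeq2 also called 0 lower, POLD1 was nearest to the call at -0.97, and 33 of 42 had an unadjusted p under 0.05 in either direction, beside 71.6% of all genes.

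The change itself differed between the lines for 9 of the 42 genes (21.4%), tested as an interaction (HepG2 change minus Huh-7 change). That is no more often than over all genes, of which 34.2% were called in at least 1 of the 3 interactions. At 12 h 4 genes had a higher change in HepG2 (9.4% of all genes), all of which fell in Huh-7: GINS1 (1.48 ± 0.16 on the log2 scale, SE), PRIM1 (1.16 ± 0.16), CDC7 (1.10 ± 0.16) and RPA1 (1.03 ± 0.07). The change of E2F1 (-1.20 ± 0.09) and TK1 (-1.07 ± 0.09) was lower in HepG2 (8.35% of all genes). At 24 h E2F1 differed most (-2.38 ± 0.09, adjusted p = 1.23e-20), followed by MCM5 (-1.61 ± 0.07), TK1 (-1.49 ± 0.09) and CDC45 (-1.20 ± 0.10), all lower in HepG2 (10.9% of all genes). UHRF1 had the higher change in HepG2 at 24 h (1.05 ± 0.07, against 13.1% of all genes). Those 2 interactions share the single untreated HepG2 library. The difference in the change from 12 to 24 h does not use it: UHRF1 was 1.42 ± 0.06 higher in HepG2 (6.92% of all genes; adjusted p = 2.3e-20), and MCM5 (-1.44 ± 0.06, adjusted p = 1.82e-19) and E2F1 (-1.18 ± 0.06, adjusted p = 2.11e-16) were lower (5.24% of all genes). Medians over the 42 genes were 0.00 at 12 h, -0.21 at 24 h and -0.28 from 12 to 24 h, beside 0.02, -0.01 and -0.02 over all genes.

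**Figure D5:**
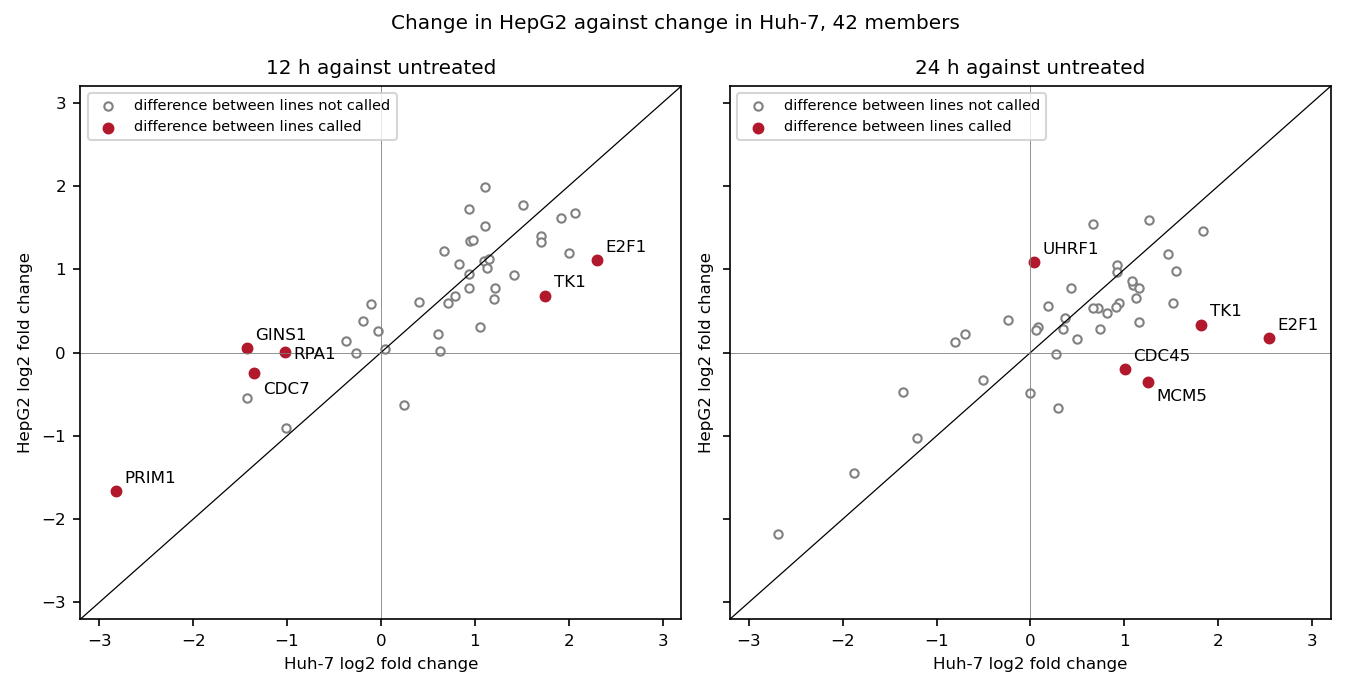
Log2 fold change in HepG2 against that in Huh-7 for the 42 genes, at 12 h (left) and 24 h (right), each against the untreated libraries of its line, with the diagonal of equal change. Filled points differ between the lines by edgeR's interaction test; E2F1 and TK1 lie under the diagonal at both times.

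Of 68 further replication genes, 19 (27.9%) rose and 15 (22.1%) fell in Huh-7 at 12 h, beside 16.8% and 27.1% of all genes. At 24 h 15 (22.1%) rose and 15 (22.1%) fell, beside 17.9% and 26.9%. In HepG2 24 (35.3%) rose and 7 (10.3%) fell at 12 h, beside 14.3% and 23.6%. At 24 h 13 (19.1%) rose and 9 (13.2%) fell there, beside 14.1% and 22.3%. Median log2 fold changes of the 68 were 0.11 and 0.30 in Huh-7 and 0.45 and 0.42 in HepG2. Over all genes they were -0.10 and -0.04 in Huh-7 and -0.09 and -0.01 in HepG2. CDC25A, the phosphatase that activates the kinase of S phase cyclins, rose most of the 68 in all 4, by 7.66-fold and 5.83-fold in Huh-7 and 10.8-fold and 8.82-fold in HepG2. TK2, the thymidine kinase of mitochondria, fell in all 4, by 27.3-fold and 22.1-fold and by 12.3-fold and 3.59-fold. That was the largest fall of the 68 except in HepG2 at 24 h, where POLD4, the small subunit of polymerase delta, fell 8.84-fold. CDC25A and TK2 had the highest and lowest mean of the 4 log2 fold changes, and in every comparison the gene called higher with the highest such mean and the gene called lower with the lowest are given here. By that rule the histone chaperone ASF1B (3.45-fold higher) and the repressor E2F8 (2.23-fold lower) stand for 12 to 24 h in Huh-7. In HepG2 they are E2F5 (2.11-fold higher) and POLD4 (2.78-fold lower). Both were scarce there, E2F5 at means of 1.9 and 4.01 CPM and POLD4 at 7.52 and 2.7 CPM at 12 and 24 h. Between untreated lines E2F8 was 2.37-fold higher and the topoisomerase TOP2B 2.4-fold lower in HepG2. In the interactions the rule gave cyclin CCNE2 (1.47) and DTL (-1.83) at 12 h, and CCNE2 (1.70) and POLD4 (-1.37) at 24 h. From 12 to 24 h it gave TK2 (1.48) and POLD4 (-1.07). That TK2 value rests on the scarce treated Huh-7 counts and had an SE of 0.51 (edgeR adjusted p = 0.0166). Some called genes lay farther out in these comparisons and were picked after their values were seen. SKP2, which marks cell cycle inhibitors for degradation, had the highest interaction at 12 h (3.63) and at 24 h (3.67), and DTL had the lowest at 24 h (-1.98). ASF1B had the lowest interaction from 12 to 24 h (-1.97) and was the farthest above Huh-7 in untreated HepG2 (log2 1.57). TK2 had the largest rise from 12 to 24 h in HepG2 (log2 1.78).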

How the data were processed

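The deposited table of each library gives, per the file headers, an expected count, an FPKM value and a length for each gene, all made by the authors; the expected count is RSEM's estimate of the reads of a gene, and deposited FPKM divides it by length and library size. Lengths are those the authors' tables list, in bases, and vary between libraries for some genes. HISAT, Bowtie2, RSEM and hg19 are named in the submitters' processing notes, without versions. An unlisted gene was entered as 0. The total per library was 9543048 to 10457853 expected counts, of which 31.1% to 32.3% of values were not whole within 0.001, and 3 counts, the limit that a count of 0 allows (counting error only), equal 0.287 to 0.314 CPM.

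Expected counts were rounded and tested across all genes with edgeR 4.0.16 (R 4.3.3, limma 3.58.1), after filterByExpr and TMM, with 1 coefficient for each of 6 groups over 16 libraries (10 residual degrees of freedom) and Benjamini-Hochberg adjustment over 13633 genes in each of 10 comparisons. The edgeR step was tried on simulated counts for Huh-7 at 12 h against untreated, with known changes in few genes, as many up as down. It therefore cannot vouch for the scaling of these data or for comparisons with the lone untreated HepG2 library. The alternatives were other scalings, DESeq2 1.42.0, limma on log2(FPKM + 1) and log2(FPKM + 0.1), no filter, 1 line alone, a replicate block and leaving out each library. Values in each library were given for E2F1 and, per role, for the genes with the highest and lowest mean of the 4 log2 fold changes among those with at least 10 CPM; of the 68 other genes, the one called higher with the highest such mean and the one called lower with the lowest were named in each comparison. Replicate libraries differed by more than sampling noise. Members and lists were chosen with earlier results of these data known.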

Additional observations from a re-analysis of the deposited data

Results flagged for a closer look

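A change that differed between the lines by the interaction test (edgeR, adjusted p under 0.05, at least 2-fold) drew attention to 9 of the 42 genes (21.4%) in 14 results. At least 1 such result was found for 34.2% of all genes. Values are HepG2 change minus Huh-7 change on the log2 scale. At 12 h, where 9.4% of all genes were called higher and 8.35% lower, these were GINS1 (1.48), PRIM1 (1.16), CDC7 (1.10), RPA1 (1.03), TK1 (-1.07) and E2F1 (-1.20). At 24 h (13.1% and 10.9% of all genes) they were UHRF1 (1.05), CDC45 (-1.20), TK1 (-1.49), MCM5 (-1.61) and E2F1 (-2.38). From 12 to 24 h (6.92% and 5.24%) they were UHRF1 (1.42), E2F1 (-1.18) and MCM5 (-1.44), whose values use no untreated library. No group has 4 or more libraries, so single libraries standing far from the rest were not looked for.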

How the results depend on the processing

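Of 90 calls of the 42 genes over 10 comparisons, none changed sign under the alternatives run for its comparison. Fits on the libraries of 1 line were run for the 6 comparisons within a line only, with 72 calls, and all others for all 10. Calls lost and gained were 1 and 0 with RLE, 24 and 7 with upper-quartile scaling, 30 and 7 with plain library size, 4 and 17 with the library median, 1 and 0 with DESeq2, 36 and 4 with limma on log2(FPKM + 1), 32 and 5 with log2(FPKM + 0.1), 1 and 1 without a filter, and 1 and 0 with 1 line alone. The cause was not tested beyond the shift of the median of all genes. Over all genes the share of calls that were higher dropped too. In Huh-7 at 12 h it went from 38.3% to 26.8% (upper-quartile), 21.3% (plain), and 24.5% and 21.6% (FPKM scales). At 24 h there it went from 40.0% to 24.3% to 27.1% on those 4. In HepG2 plain scaling and the FPKM scales gave 19.3% to 21.0% at 12 h (37.7% in the main fit) and 23.4% to 24.2% at 24 h (38.7%). Counts of the 42 genes follow. Higher counts in Huh-7 at 12 h (17) became 9 with upper-quartile or plain scaling and 8 on either FPKM scale; at 24 h (14) they became 6 on each of those 4. In HepG2 the 17 at 12 h became 7 (plain) and 6 (either FPKM scale), and the 6 at 24 h became 3 on those 3 scales. The 1 lower at 12 h became 2 (upper-quartile) and 3 (plain, either FPKM scale). From 12 to 24 h the 1 higher in Huh-7 became 0 with the library median and log2(FPKM + 1), and the 1 lower in HepG2 became 0 with plain size and either FPKM scale and 3 with the library median. Untreated HepG2 had 1 lower gene instead of 0 with upper-quartile, plain and median scaling, either FPKM scale and no filter. The interaction at 12 h had 1 higher gene instead of 4 with log2(FPKM + 1) and 1 lower instead of 2 with upper-quartile scaling; at 24 h it had 5 and 3 higher instead of 1 with upper-quartile and plain scaling.

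Without the fold threshold the higher and lower counts, each with the shares over all genes, were 30 and 8 (Huh-7, 12 h; the lower count was 6 with it; 38.6% and 45.1%), 30 and 8 (Huh-7, 24 h; 40.2% and 43.8%), 11 and 17 (Huh-7, 24 against 12 h; 31.2% and 30.4%), 31 and 5 (HepG2, 12 h; 33.3% and 40.4%), 29 and 9 (HepG2, 24 h; 35.0% and 38.3%), 4 and 34 (HepG2, 24 against 12 h; 30.4% and 31.2%), 27 and 6 (untreated lines; 37.0% and 32.7%), 17 and 14 (interaction at 12 h; 26.6% and 25.1%), 13 and 22 (at 24 h; 29.9% and 30.2%) and 7 and 25 (between them; 23.4% and 27.2%).

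Leaving out 1 library gave higher and lower ranges of 17 to 17 and 5 to 6 (Huh-7, 12 h), 13 to 14 and 4 to 4 (24 h), 0 to 1 and 2 to 2 (24 against 12 h), 17 to 17 and 1 to 1 (HepG2, 12 h), 6 to 6 and 2 to 3 (24 h), 0 to 0 and 1 to 1 (24 against 12 h), 4 to 4 and 0 to 1 (untreated lines), and, for the interactions, 4 to 4 and 2 to 2, 1 to 3 and 4 to 4, and 1 to 1 and 2 to 2. POLD1 was called lower in untreated HepG2 without Huh-7 12 h replicate 1 or HepG2 12 h replicate 2 or 3. CDC7 and GINS1 joined the 24 h interaction without Huh-7 24 h replicate 3.

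Libraries with the same replicate number did not deviate together (correlations -0.057 to 0.0576 over 30 pairs, 0 of them over 0.1). No pairing by number was seen, though counting noise in these deviations could hide one. With the replicate block 1 call of 90 was lost, POLA2 in HepG2 at 24 h (2 lower instead of 3), and 0 were gained.

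Limits: untreated HepG2 is 1 library and was never left out. All 42 genes passed the filter on low counts; for the scarcest, such as PRIM1 in treated Huh-7, counting error is largest. Strand use in counting is not stated.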

Other observations

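The length that the authors' tables give for RFC3 differed between groups, while that of PRIM1, E2F1 and TYMS was the same in every library. RFC3 was 2178.0 to 2273.3 bases long in untreated Huh-7, 2380.9 to 2396.0 at 12 h and 2114.4 to 2182.3 at 24 h. In HepG2 it was 2235.5 bases untreated, 2372.8 to 2396.0 at 12 h and 2242.0 to 2336.2 at 24 h. The 12 h libraries of both lines, in which RFC3 was most abundant, thus had the longest values, with no overlap with the other groups of the line. UHRF1, also most abundant at 12 h, went the other way. It was 4029.0 to 4040.9 bases long at 12 h in Huh-7, beside 4083.4 to 4085.7 untreated and 4093.1 to 4133.3 at 24 h. In HepG2 it was 4028.8 to 4034.4 at 12 h, beside 4095.5 untreated and 4052.0 to 4062.0 at 24 h. The labels do not say how these lengths were made.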
